A study of Homo sapiens with 6 samples.

Results

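The genes described here are those of the vacuolar-type proton pump (V-ATPase) and its accessory proteins, the cathepsins and the lysosome-associated membrane proteins (LAMPs). They were chosen by symbol alone, as rows of the deposited table whose symbol is ATP6V0 or ATP6V1 followed by a subunit letter, ATP6AP1 or ATP6AP2, CTS followed by a letter, or LAMP1 to LAMP3. This gave 42 genes of the 61806 in the table: 13 of the V1 sector, 9 of the V0 sector, 2 accessory genes, 15 cathepsins and 3 LAMPs. The samples were 6 poly(A) RNA-seq libraries of HCT116, an established human colorectal carcinoma line that the labels call wildtype in the controls. A control short interfering RNA (si-NC) was given to the cells of 3 libraries, and an RNA directed at STRIP2 (si-STRIP2), a scaffold gene of the STRIPAK phosphatase complex, to those of the other 3. Per the labels both groups grew in McCoy's medium with serum and antibiotics. The dose, the time after transfection, the number of different duplexes and the number of cultures behind each group are not given in the sources used here, so p-values measure the spread between these libraries, which may be technical.

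The V-ATPase is a rotary pump. Its cytosolic V1 sector breaks down ATP with a ring of A and B subunits, its membrane V0 sector carries protons through a ring of c subunits past subunit a, and stalks made of D and F (rotating) or of E, G, C and H (stationary) join the sectors. The acid it makes is what the cathepsins, a group of lysosomal proteases, need for activation, and the LAMPs are heavily glycosylated proteins that make up much of the lysosomal membrane. Many of these genes are known targets of the MiT/TFE transcription factors (TFEB, TFE3, MITF), which bind an E-box in the CLEAR element of their promoters.

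Total counts ranged from 17184963 to 21721218 per library, and 4.88% to 8.88% of them came from mitochondrial genes. STRIP2 itself stood at 72.6% of its control level (FPKM 3.59 ± 0.347 in si-NC against 2.61 ± 0.0929 in si-STRIP2, SD, n = 3; edgeR adjusted p = 1.62e-05). Of 10 epithelial markers of the line, EPCAM (206 FPKM in si-NC), KRT8 and KRT18 were abundant, while VIL1, CDX1 and LGR5 had at most 3 counts in any library. Of the 7 genes of this list that were tested, 2 rose and 4 fell (85.7% called, against 54.8% of all genes tested). The largest log2 fold changes were those of CDH1 (-0.60), CDX2 (0.38) and ESRP1 (-0.33). Of 14 markers of leukocytes, macrophages, fibroblasts, endothelium and osteoclasts, 12 were too low to test, with at most 15 counts in a library, and ELANE and COL1A2 had none. The other two, COL1A1 and OSCAR, were not called. The summed FPKM of the 14 markers was 2.57 to 3.15 in si-NC against 2.20 to 2.60 in si-STRIP2, and its part in the results below was not tested. All 9 genes of a stress list were called, 6 lower and 3 higher, where 54.8% of all genes tested were called. JUN went from a mean of 14.8 to 2.42 FPKM, FOS from 22.1 to 5.47 and HSPA8 from 62.5 to 195 (edgeR adjusted p = 3.11e-23, 5.41e-20 and 3.40e-24). The part of such a stress difference in the results below was not tested. These are bulk samples, in which fewer cells of a type and less RNA per cell cannot be told apart.

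In si-STRIP2 cells the genes of this group split, with proton pump subunits moving both up and down, most of the changed cathepsins falling and LAMP3 falling the most. Of the 42 genes, 33 had enough counts to be tested, each with at least 20 counts in every library. The edgeR quasi-likelihood test, with adjustment over all 15687 genes tested, called 21 of them at an adjusted p under 0.05, 8 higher and 13 lower in si-STRIP2. The share over all genes tested was 54.8% called, 27.8% higher and 27.0% lower, so the share called here (63.6%) was near the background. The median log2 fold change (written log2 ratio below, si-STRIP2 over si-NC, with its standard error, SE) was -0.072 over the 33 genes and 0.014 over all genes tested. FPKM values, which count fragments scaled to exon length and library total, did not overlap between the groups for 20 of the 33 genes (60.6%), against 58.6% of all genes tested. Most changes were small: 10 of the 21 called genes changed by less than 1.2-fold, 9 by 1.2-fold to 2-fold, and 2, LAMP3 and CTSO, by more. When the test asked for a change above 1.2-fold (edgeR glmTreat), it called 6 of the 33, where 23.7% of all genes tested were called. These were LAMP3, CTSO, CTSL and CTSC, all lower, and ATP6V1D and ATP6V1E1, both higher.

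**Figure D1:**
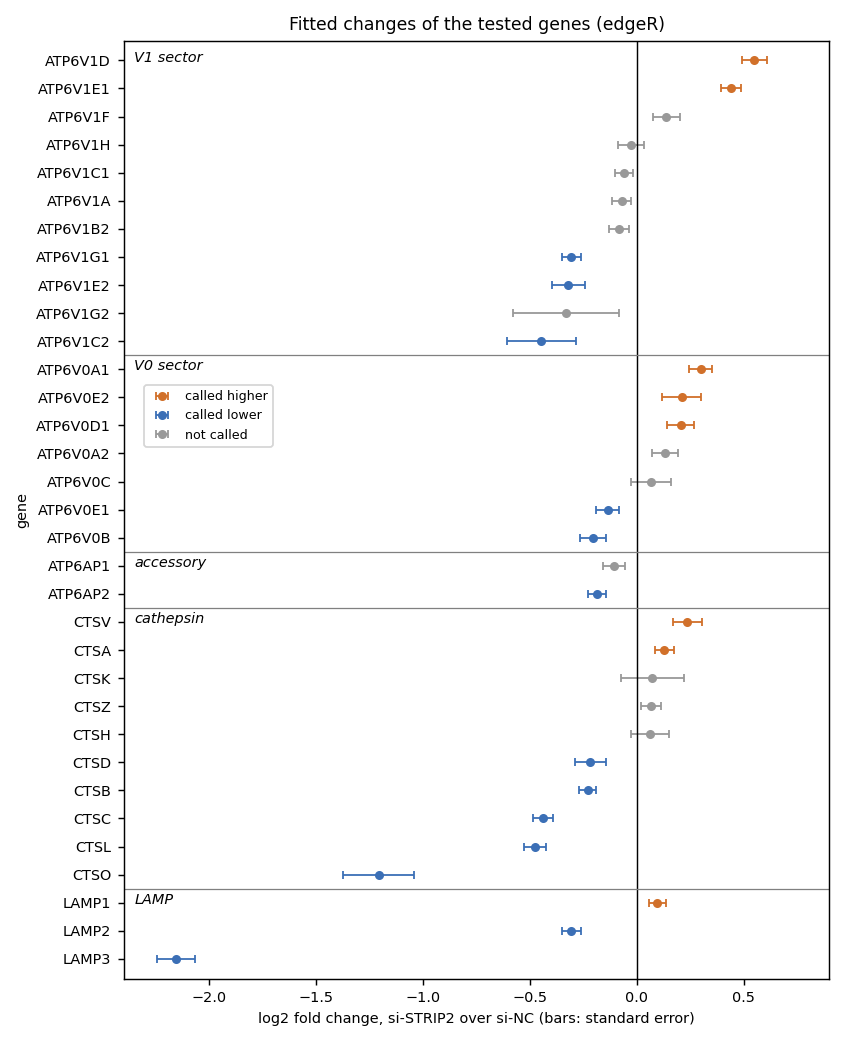
Log2 fold change of si-STRIP2 over si-NC for each of the 33 tested genes, grouped by role, with the standard error as a bar and the colour giving the call. LAMP3 lies at -2.15 and CTSO at -1.21, while the other genes lie between -0.48 and 0.55.

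Promoters were examined because many genes of this group are known to share an E-box through which MiT/TFE factors act. The sequences are RefSeq windows on GRCh38.p14, from 250 bases before to 50 bases after an annotated start, and 28 of the 42 symbols had at least 1 window, 35 windows in all. The 6-base palindrome CACGTG, which reads the same on both strands, was found in 9 of these 35 windows (25.7%), belonging to 8 genes, and in 7.26% of all 35116 windows. TCACGTGA, which contains it and is the core of the CLEAR element, was found in 4 of the 35 (11.4%) and in 0.980% of all windows. The genes with TCACGTGA were LAMP1, CTSA, ATP6V1G1 and ATP6V0D1. The windows of these 4 and of ATP6V0B, which has a pair of CACGTG matches, are printed 5′ to 3′ on the strand of the gene with CACGTG in capitals, since they show how the same motif sits in genes that went up and genes that went down.
LAMP1 (chr13:113296989-113297288, plus strand): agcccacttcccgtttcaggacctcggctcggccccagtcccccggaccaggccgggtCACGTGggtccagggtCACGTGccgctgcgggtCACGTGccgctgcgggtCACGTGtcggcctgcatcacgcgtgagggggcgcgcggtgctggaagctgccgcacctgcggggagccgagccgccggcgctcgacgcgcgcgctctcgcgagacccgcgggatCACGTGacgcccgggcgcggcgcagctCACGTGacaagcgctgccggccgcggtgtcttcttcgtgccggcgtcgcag
CTSA (chr20:45891085-45891384, plus strand): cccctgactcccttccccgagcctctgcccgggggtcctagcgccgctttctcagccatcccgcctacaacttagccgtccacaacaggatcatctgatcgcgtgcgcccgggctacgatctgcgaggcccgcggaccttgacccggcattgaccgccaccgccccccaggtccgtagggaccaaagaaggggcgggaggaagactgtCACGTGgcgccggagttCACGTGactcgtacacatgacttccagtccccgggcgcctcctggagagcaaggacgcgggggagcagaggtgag
ATP6V0D1 (chr16:67481108-67481407, minus strand): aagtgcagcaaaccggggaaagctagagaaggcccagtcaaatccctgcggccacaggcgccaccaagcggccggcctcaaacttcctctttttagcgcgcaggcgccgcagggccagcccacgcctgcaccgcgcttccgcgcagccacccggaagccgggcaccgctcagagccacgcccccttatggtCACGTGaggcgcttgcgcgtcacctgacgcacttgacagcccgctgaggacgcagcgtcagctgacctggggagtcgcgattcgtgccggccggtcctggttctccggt
ATP6V1G1 (chr9:114587519-114587818, plus strand): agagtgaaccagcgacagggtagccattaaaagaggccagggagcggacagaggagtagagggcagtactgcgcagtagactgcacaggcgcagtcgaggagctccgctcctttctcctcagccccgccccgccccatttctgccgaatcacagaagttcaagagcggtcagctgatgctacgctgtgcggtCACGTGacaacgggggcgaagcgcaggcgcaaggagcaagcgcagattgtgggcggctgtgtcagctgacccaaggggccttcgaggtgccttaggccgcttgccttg
ATP6V0B (chr1:43974710-43975009, plus strand): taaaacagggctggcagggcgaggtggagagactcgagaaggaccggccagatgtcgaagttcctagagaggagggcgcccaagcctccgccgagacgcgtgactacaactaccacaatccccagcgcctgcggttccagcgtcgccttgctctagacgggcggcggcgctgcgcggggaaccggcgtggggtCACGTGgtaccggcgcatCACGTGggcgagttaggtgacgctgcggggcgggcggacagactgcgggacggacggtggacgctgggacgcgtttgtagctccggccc

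The LAMP1 window holds 6 copies of CACGTG, 2 of them within TCACGTGA, and that of CTSA holds 2. In ATP6V0D1 and ATP6V1G1 a single TCACGTGA lies close to the same place, with its CACGTG starting 59 and 58 bases before the annotated start, yet ATP6V0D1 was higher and ATP6V1G1 lower in si-STRIP2. Of the 7 tested genes with CACGTG in a window, 4 were called higher (LAMP1, CTSA, ATP6V0D1 and ATP6V0E2) and 3 lower (ATP6V1G1, ATP6V0B and CTSD), with log2 fold changes from -0.31 to 0.21. The calls of LAMP1, CTSA, ATP6V0E2 and CTSD were each lost in at least 1 alternative analysis besides the test against 1.2-fold. Of the 15 tested genes whose windows lack it, 4 were called higher and 4 lower, with log2 fold changes from -0.48 to 0.55, and 54.8% of all genes tested were called. ATP6V1D, CTSL, ATP6V1C2, ATP6V1E1 and CTSC, the 5 genes with a window that had the largest fold changes, have no CACGTG in it. LAMP3, LAMP2 and CTSO had no window in the table.

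The 3 LAMP genes did not move together. LAMP3 (ENSG00000078081, chromosome 3, 183122215 to 183163839, minus strand, GRCh38), also called DC-LAMP, is an inducible member of the family known from mature dendritic cells, interferon responses and stressed tumour cells. It had FPKM values of 8.11, 7.71 and 7.58 in the si-NC libraries and 1.84, 1.89 and 1.53 in the si-STRIP2 libraries. No si-STRIP2 library came near the lowest control, and the level that remained was 22.5% of the control. The fall was 4.45-fold (log2 ratio -2.15 ± 0.090 SE by edgeR, adjusted p = 5.46e-20), and its log2 fold change over the 14 alternative analyses lay between -2.21 and -1.68.

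LAMP2 (ENSG00000005893, chromosome X, 120426148 to 120469365, minus strand) encodes a major lysosomal membrane protein and, through a splice form, the receptor of chaperone-mediated autophagy. Its FPKM was 16.45, 17.45 and 16.20 in si-NC against 12.82, 13.74 and 14.02 in si-STRIP2. The groups did not overlap, and LAMP2 fell to 81.0% of the control (log2 ratio -0.31 ± 0.044 SE by edgeR, adjusted p = 2.86e-07). The deposited counts are per gene and do not separate its splice forms.

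LAMP1 (ENSG00000185896, chromosome 13, 113297239 to 113323672, plus strand), the most used lysosomal marker, went slightly the other way. It had 39.68, 39.11 and 37.36 FPKM in si-NC against 40.44, 42.30 and 41.63 FPKM in si-STRIP2, a rise to 107% of the control with no overlap. It had a log2 ratio of 0.095 ± 0.040 SE (edgeR, adjusted p = 0.0466), and the call was lost in 10 of the 14 alternatives, among them those without si-NC replicate 2 (adjusted p = 0.0865), si-NC replicate 3 (0.143), si-STRIP2 replicate 2 (0.171) or si-STRIP2 replicate 3 (0.139). The ratio of LAMP1 to LAMP2 FPKM within a library was 2.32 ± 0.0863 in si-NC against 3.07 ± 0.0931 in si-STRIP2 (SD, n = 3). Summed over the 3 genes, the LAMP level was 63.2 ± 1.80 FPKM in si-NC against 56.7 ± 1.47 in si-STRIP2 (SD, n = 3).

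**Figure D2:**
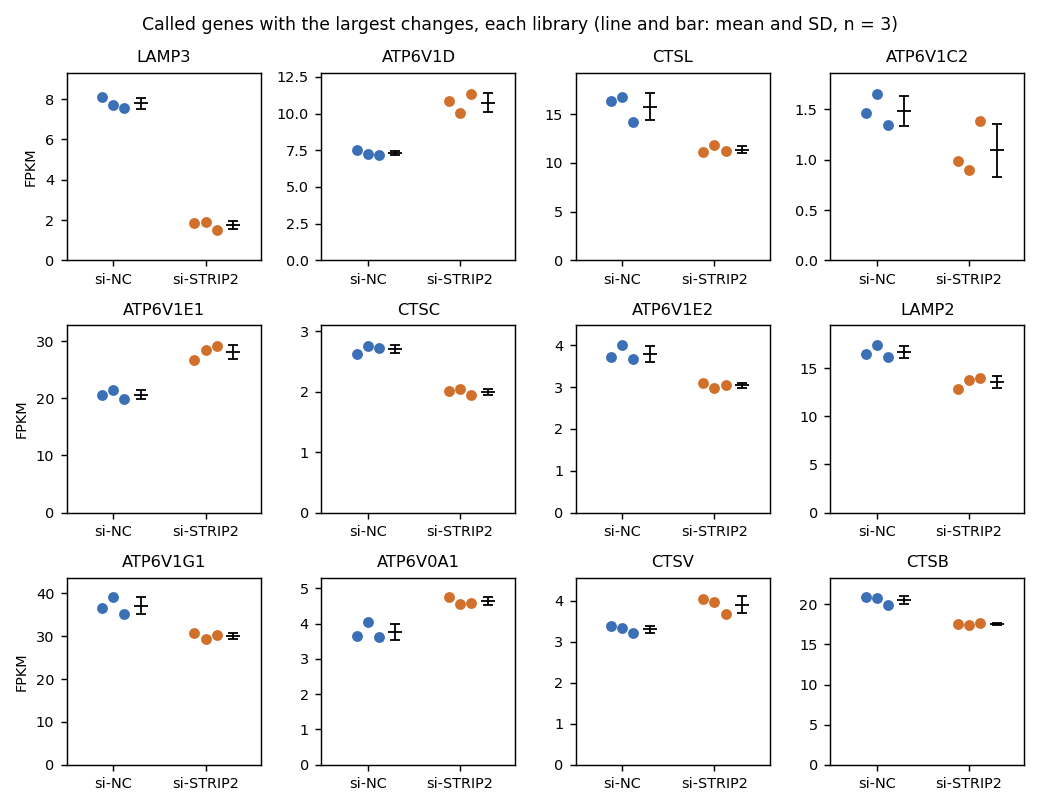
Deposited FPKM in each of the 6 libraries (dots) for the 12 called genes with the largest fold changes and a mean of at least 1 FPKM, with the group mean (line) and SD (bar, n = 3) beside the dots. In 11 panels the groups are separate, and in that of ATP6V1C2 the si-STRIP2 library at 1.39 lies among the controls.

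Of the 15 cathepsins, 10 were tested and 7 were called, 5 lower and 2 higher, where 54.8% of all genes tested were called, 27.0% lower and 27.8% higher. The largest fall by ratio was that of CTSO (ENSG00000256043, chromosome 4, 155921580 to 155953912, minus strand), a little studied cysteine cathepsin expressed here at a low level. It had 130, 121 and 129 counts in si-NC against 40, 66 and 51 counts in si-STRIP2. In FPKM this was 0.76, 0.88 and 0.95 against 0.27, 0.48 and 0.37, so that every si-STRIP2 library lay below every control and the mean was 43.2% of the control (log2 ratio -1.21 ± 0.16 SE by edgeR, adjusted p = 1.37e-07). It was called in all 11 alternatives that gave it a value. The other 3 needed at least 1 FPKM in 3 libraries, which CTSO did not reach.

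Among the abundant cysteine cathepsins, CTSL (ENSG00000135047, chromosome 9, 87724051 to 87731469, plus strand), a broad endopeptidase of the lysosome, fell most. Its FPKM was 16.39, 16.76 and 14.22 in si-NC against 11.09, 11.83 and 11.23 in si-STRIP2, with no overlap and 72.1% of the control remaining. The log2 ratio was -0.48 ± 0.051 SE (edgeR, adjusted p = 8.70e-10). Its 6 annotated pseudogenes held 0.120% as many counts as CTSL. CTSV, also known as cathepsin L2 and the closest paralogue of CTSL, moved in the opposite direction. It had 3.38, 3.33 and 3.21 FPKM in si-NC against 4.06, 3.98 and 3.67 FPKM in si-STRIP2, and rose to 118% of the control (log2 ratio 0.24 ± 0.067 SE by edgeR, adjusted p = 0.00347). Within a library, CTSL stood 4.77 ± 0.309 times above CTSV in si-NC against 2.92 ± 0.170 times in si-STRIP2 (SD, n = 3), and these ratios did not overlap.

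CTSC (ENSG00000109861, chromosome 11, 88265069 to 88359684, minus strand) encodes the dipeptidyl peptidase that activates granule serine proteases. Its FPKM was 2.63, 2.76 and 2.73 in si-NC against 2.01, 2.04 and 1.94 in si-STRIP2, and it fell to 73.8% of the control (log2 ratio -0.44 ± 0.048 SE by edgeR, adjusted p = 1.18e-09). CTSB, the most abundant cathepsin in these cells and both an endopeptidase and a carboxydipeptidase, had 20.90, 20.74 and 19.98 FPKM in si-NC against 17.57, 17.42 and 17.69 FPKM in si-STRIP2. This was a small fall with tight replicates, to 85.5% of the control (log2 ratio -0.23 ± 0.040 SE by edgeR, adjusted p = 8.00e-06). CTSD, the main aspartic protease of the lysosome, went from 4.26, 4.02 and 4.02 FPKM to 3.50, 3.58 and 3.54 FPKM (log2 ratio -0.22 ± 0.072 SE by edgeR, adjusted p = 0.0109). Its call was lost without si-NC replicate 1 (adjusted p = 0.0690).

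CTSA, a serine carboxypeptidase that also protects beta-galactosidase and neuraminidase in the lysosome, rose by 1.09-fold. It had 7.78, 8.28 and 8.09 FPKM in si-NC against 8.97, 8.74 and 8.68 FPKM in si-STRIP2, with no overlap (log2 ratio 0.13 ± 0.045 SE by edgeR, adjusted p = 0.0160). CTSA was called in 10 of the 14 alternatives. It was not called without si-NC replicate 1 (edgeR adjusted p = 0.0844), with DESeq2 (adjusted p = 0.0613) or by edgeR with no filter on low counts (adjusted p = 0.0513). The test against 1.2-fold did not call it either. CTSZ, CTSH and CTSK were tested and not called. Their log2 ratios were 0.067 ± 0.047, 0.061 ± 0.090 and 0.072 ± 0.15 (SE), and edgeR gave adjusted p-values of 0.234, 0.590 and 0.705. CTSZ lay between 3.63 and 4.21 FPKM over the 6 libraries, CTSH between 1.00 and 1.24, and CTSK, the bone-degrading cathepsin of osteoclasts, between 0.47 and 0.62.

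The other 5 cathepsins were at the limit of detection. CTSS, the cathepsin of antigen-presenting cells, had 2 to 9 counts per library, CTSE at most 3, CTSF at most 2 and CTSW at most 1. CTSG, the neutrophil granule protease, had no count in any library, which allows a level of up to 0.0273 CPM (counts scaled to library size) over the 6 libraries, for counting error only. The summed FPKM of the 15 cathepsins was 61.84, 62.53 and 58.53 in si-NC against 53.48, 54.12 and 52.72 in si-STRIP2. Every si-STRIP2 sum was below every control sum, and the mean was 87.7% of the control. CTSB and CTSL make up most of this sum, and both fell.

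**Figure D3:**
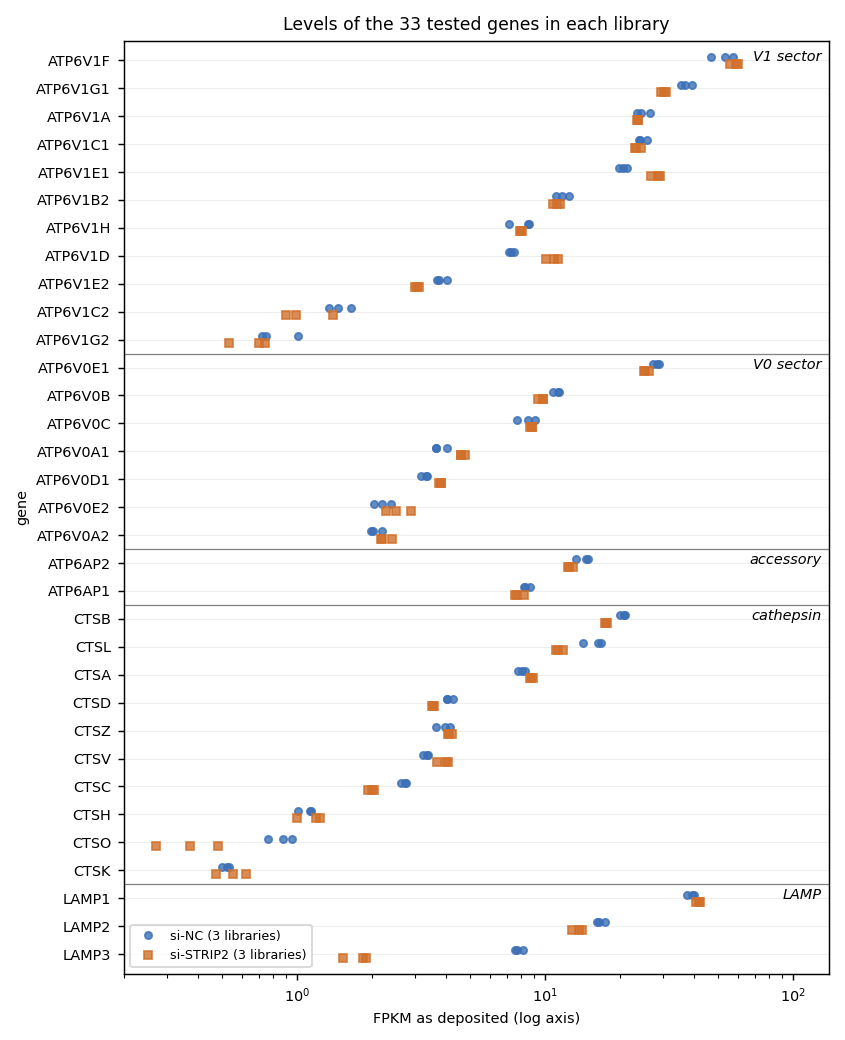
Deposited FPKM of each tested gene in each library on a log axis, with circles for si-NC and squares for si-STRIP2, grouped by role and ordered by the si-NC mean. Mean levels in si-NC ran from 0.517 for CTSK to 52.5 for ATP6V1F, and only LAMP3 and CTSO have group means that differ by more than 2-fold.

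Of the 24 genes of the proton pump and its accessory proteins, 20 were tested and 11 were called (55.0%), 5 higher and 6 lower. That share was near the 54.8% called over all genes tested, 27.8% higher and 27.0% lower. Their summed FPKM was 275 ± 11.6 in si-NC against 276 ± 0.395 in si-STRIP2 (SD, n = 3), and within that sum single subunits moved against one another. FPKM is divided by the exonic size that the table gives for each gene, from 678 to 24849 bases here, so levels of genes with a long annotated exonic size, such as CTSC, come out low relative to those of compact genes such as ATP6V1F.

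In the V1 sector, 2 of the 11 tested genes rose, 3 fell and 6 were not called (45.5% called, against 54.8% of all genes tested). ATP6V1D (ENSG00000100554, chromosome 14, 67294371 to 67360265, minus strand) encodes the central rotor subunit D and had the largest rise. Its FPKM was 7.50, 7.26 and 7.18 in si-NC against 10.85, 10.06 and 11.32 in si-STRIP2, which is 147% of the control with no overlap (log2 ratio 0.55 ± 0.059 SE by edgeR, adjusted p = 1.08e-09). PALS1 overlaps it on the opposite strand and held 152% as many counts, with a log2 fold change of 0.092 (edgeR adjusted p = 0.125), and whether HTSeq counted by strand is not given in the sources used here.

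ATP6V1E1 (ENSG00000131100, chromosome 22, 17592136 to 17628749, minus strand) encodes the widely expressed form of subunit E of the stationary stalk. It had 20.58, 21.45 and 19.90 FPKM in si-NC against 26.75, 28.41 and 29.15 FPKM in si-STRIP2, a rise to 136% of the control (log2 ratio 0.44 ± 0.047 SE by edgeR, adjusted p = 8.98e-10). No counted gene overlaps it, and its 3 pseudogenes held 0.0717% as many counts. ATP6V1G1 (ENSG00000136888, chromosome 9, 114587706 to 114598915, plus strand), whose product G pairs with E in the same stalk, went down. Its FPKM was 36.68, 39.19 and 35.28 in si-NC against 30.66, 29.24 and 30.18 in si-STRIP2, or 81.0% of the control (log2 ratio -0.31 ± 0.043 SE by edgeR, adjusted p = 2.54e-07). The ratio of ATP6V1E1 to ATP6V1G1 FPKM was 0.561, 0.547 and 0.564 in the si-NC libraries and 0.873, 0.972 and 0.966 in the si-STRIP2 libraries. Transcripts of these stalk partners were thus nearer to equal FPKM in every si-STRIP2 library than in any control.

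The second form of subunit E also fell while ATP6V1E1 rose. ATP6V1E2, known as the testis-rich form, had 3.72, 4.02 and 3.67 FPKM in si-NC against 3.10, 2.99 and 3.05 FPKM in si-STRIP2 (log2 ratio -0.32 ± 0.078 SE by edgeR, adjusted p = 0.000727). The share of ATP6V1E2 in the FPKM of the E genes was 15.6% ± 0.238 in si-NC against 9.79% ± 0.513 in si-STRIP2 (SD, n = 3). RHOQ overlaps ATP6V1E2 on the opposite strand, held 535% as many counts and was lower as well (log2 ratio -0.21 by edgeR, adjusted p = 7.30e-05), and its part in the fall of ATP6V1E2 was not tested.

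ATP6V1C2, an epithelial form of subunit C, had 1.46, 1.65 and 1.35 FPKM in si-NC against 0.99, 0.90 and 1.39 FPKM in si-STRIP2. The groups overlapped through si-STRIP2 replicate 3. The fitted log2 ratio was -0.45 ± 0.16 SE (edgeR, adjusted p = 0.0182), and the gene was called in only 7 of the 14 alternatives. The losses included those without si-NC replicate 2 (adjusted p = 0.0725), si-STRIP2 replicate 1 (0.0853) or si-STRIP2 replicate 2 (0.117). PDIA6 overlaps it on the opposite strand with 5381% as many counts and a log2 fold change of -0.24, so ATP6V1C2 is uncertain.

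The subunits of the catalytic ring did not pass the test. ATP6V1A, the ATP-hydrolysing subunit, had 23.51, 26.48 and 24.43 FPKM in si-NC against 23.47, 23.69 and 23.72 FPKM in si-STRIP2 (log2 ratio -0.072 ± 0.043 SE by edgeR, adjusted p = 0.158). ATP6V1B2, the broadly expressed B subunit, had a log2 ratio of -0.084 ± 0.047 SE (edgeR, adjusted p = 0.128) at 11.7 ± 0.732 FPKM in si-NC against 11.1 ± 0.386 in si-STRIP2 (SD, n = 3), and it was called without si-NC replicate 3 (log2 ratio -0.13, adjusted p = 0.0208). The broadly expressed C subunit ATP6V1C1 and the regulatory H subunit ATP6V1H stood at 95.9% and 98.6% of the control and were not called (edgeR, adjusted p = 0.212 and 0.718). ATP6V1F, the rotor partner of D and the most abundant gene of the group per length, had 57.40, 53.30 and 46.81 FPKM in si-NC against 58.91, 59.83 and 55.62 FPKM in si-STRIP2. Its groups overlapped (log2 ratio 0.14 ± 0.061 SE by edgeR, adjusted p = 0.0565), and the low control at 46.81 was si-NC replicate 3. That library had the largest mitochondrial share, and the part of this share in the low value was not tested. Without that library the log2 fold change of ATP6V1F was 0.061 (adjusted p = 0.402), and without si-NC replicate 1 it was 0.22 (adjusted p = 0.00772). The gene was also called without si-STRIP2 replicate 3 (adjusted p = 0.0474). ATP6V1G2, the neuronal G form, had 20 to 38 counts per library and was not called (edgeR adjusted p = 0.266). NFKBIL1 overlaps it on the other strand with 736% as many counts.

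In the V0 sector, 3 of the 7 tested genes rose and 2 fell (71.4% called, against 54.8% of all genes tested). ATP6V0A1 (ENSG00000033627, chromosome 17, 42458844 to 42522582, plus strand) encodes a form of subunit a, which steers the pump to its membrane. It had 3.64, 4.04 and 3.62 FPKM in si-NC against 4.76, 4.57 and 4.58 FPKM in si-STRIP2, a rise to 123% of the control with no overlap (log2 ratio 0.30 ± 0.053 SE by edgeR, adjusted p = 1.42e-05). ATP6V0D1, subunit d, which couples the rotor to the membrane ring, went from 3.33, 3.31 and 3.17 FPKM to 3.82, 3.75 and 3.79 FPKM (log2 ratio 0.20 ± 0.064 SE by edgeR, adjusted p = 0.00696). Both were called in every alternative other than the test against 1.2-fold.

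ATP6V0B, the c'' subunit of the membrane ring, fell to 86.9% of the control, from 11.33, 10.72 and 11.26 FPKM to 9.85, 9.77 and 9.34 FPKM (log2 ratio -0.21 ± 0.060 SE by edgeR, adjusted p = 0.00411). ATP6V0C, the c subunit that fills most of that ring, did not pass the test. Its FPKM was 7.67, 9.10 and 8.51 in si-NC against 8.84, 8.89 and 8.69 in si-STRIP2 (log2 ratio 0.067 ± 0.093 SE by edgeR, adjusted p = 0.566), so the controls spanned the si-STRIP2 values.

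The small e subunits went in opposite directions. ATP6V0E1 had 28.81, 28.15 and 27.12 FPKM in si-NC against 25.38, 25.03 and 26.34 FPKM in si-STRIP2 (log2 ratio -0.14 ± 0.054 SE by edgeR, adjusted p = 0.0310). ATP6V0E2 had 2.20, 2.04 and 2.39 FPKM in si-NC against 2.51, 2.89 and 2.29 FPKM in si-STRIP2, with overlap (log2 ratio 0.21 ± 0.091 SE by edgeR, adjusted p = 0.0493). Both calls were fragile. That of ATP6V0E1 held in only 8 of the 14 alternatives. The losses included those without si-NC replicate 1 (adjusted p = 0.143), si-STRIP2 replicate 1 (0.103) or si-STRIP2 replicate 2 (0.105). The call of ATP6V0E2 was lost in 12 of the 14 alternatives. Among them were those without si-NC replicate 1, si-NC replicate 2 (adjusted p = 0.202), si-STRIP2 replicate 1 (0.0565) or si-STRIP2 replicate 2 (0.329). ATP6V0A2, the a form linked to the Golgi, was at 2.07 ± 0.119 FPKM in si-NC against 2.27 ± 0.131 in si-STRIP2 (SD, n = 3) and was not called (edgeR adjusted p = 0.0651), except without si-NC replicate 3 (adjusted p = 0.0195).

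Of the subunit genes known for specialised tissues, ATP6V0A4, ATP6V1B1, ATP6V0D2 and ATP6V1G3 were near or at 0. ATP6V1E2, ATP6V1C2 and ATP6V1G2, described above, had enough counts to be tested. ATP6V0A4, of kidney intercalated cells, had 1 to 6 counts per library, ATP6V1B1, its usual partner there, had at most 3, and ATP6V0D2, of osteoclasts, had 1 count in all. ATP6V1G3 had none. Among the forms of subunit a, ATP6V0A1 held 45.0% ± 3.00 of the FPKM in si-NC against 47.9% ± 1.31 in si-STRIP2, and TCIRG1, the a3 form of lysosomes and osteoclasts whose symbol lies outside the rule, held 29.6% ± 2.05 and 28.6% ± 1.34 (SD, n = 3). Those ranges overlapped, while the share of ATP6V0A2, 24.8% ± 0.823 against 23.4% ± 0.475, and that of the barely detected ATP6V0A4, 0.641% ± 0.262 against 0.169% ± 0.110, did not. ATP6V1B2 and ATP6V0D1 supplied at least 99.4% of the B and d transcripts by FPKM in each library.

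Of the accessory genes, ATP6AP2, the (pro)renin receptor that helps assemble the pump, fell from 14.91, 14.63 and 13.34 FPKM to 12.93, 12.52 and 12.35 FPKM (log2 ratio -0.19 ± 0.044 SE by edgeR, adjusted p = 0.000509). ATP6AP1, its partner in assembly of the V0 sector, had 8.68, 8.33 and 8.24 FPKM in si-NC against 8.22, 7.57 and 7.71 FPKM in si-STRIP2 and was not called (log2 ratio -0.11 ± 0.053 SE by edgeR, adjusted p = 0.0827), except with a filter of at least 1 FPKM in 3 libraries (adjusted p = 0.0366).

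Transcripts of the MiT/TFE factors were measured in the same libraries. In a list of 19 genes of the MiT/TFE family and its regulators at the lysosome, 18 were tested, 6 rose and 4 fell. The share called (55.6%) was near that of all genes tested (54.8%). MITF fell from 1.37 ± 0.138 to 0.640 ± 0.0557 FPKM (SD, n = 3; log2 ratio -1.11 ± 0.12 SE by edgeR, adjusted p = 2.50e-09) and TFE3 from 8.13 ± 0.203 to 5.93 ± 0.105 FPKM (log2 ratio -0.46 ± 0.063 SE by edgeR, adjusted p = 1.85e-07). TFEB, at 0.253 FPKM in si-NC against 0.350 in si-STRIP2, was not called (edgeR adjusted p = 0.0711). RRAGD, a Rag GTPase that is itself a MiT/TFE target, fell from 7.56 ± 0.395 to 4.33 ± 0.472 FPKM (log2 ratio -0.81 by edgeR, adjusted p = 1.54e-11). LAMTOR1, LAMTOR3, LAMTOR4 and LAMTOR5, subunits of the Ragulator scaffold that anchors Rag GTPases beside the V-ATPase, were higher, with log2 fold changes of 0.26, 0.37, 0.43 and 0.19, and the remaining subunit LAMTOR2 was not called (0.034, edgeR adjusted p = 0.736). MTOR (log2 fold change 0.30) and FLCN (0.26) rose, and FNIP1 (-0.12, edgeR adjusted p = 0.0489) fell.

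Of 37 tested hydrolases and activators outside the cathepsins, 17 were lower and 6 higher (62.2% called, against 54.8% of all genes tested), and their median log2 ratio was -0.16, against 0.014 over all genes tested. LGMN, the asparaginyl endopeptidase that processes cathepsins, fell from 19.0 ± 0.465 to 11.5 ± 0.354 FPKM (SD, n = 3; log2 ratio -0.72 by edgeR, adjusted p = 1.17e-14). PSAP, the precursor of the saposins, went from 207 ± 3.64 to 137 ± 5.10 FPKM (log2 ratio -0.61 by edgeR, adjusted p = 4.31e-14). The highest log2 fold change of the list was 0.36.

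Inhibitors of the cathepsins were also lower where they changed. Of 14 such genes 5 were tested, and 3 fell: CSTA (stefin A) from 20.6 ± 1.71 to 12.8 ± 1.18 FPKM (SD, n = 3; log2 ratio -0.69 by edgeR, adjusted p = 3.52e-09), SERPINB1 (-0.41, edgeR adjusted p = 8.46e-10) and CSTB (stefin B, -0.25, edgeR adjusted p = 3.57e-05). CST3 and CST6 were not called, so 60.0% of the 5 inhibitors tested were called, against 54.8% of all genes tested. Of 23 tested lysosomal membrane proteins other than the LAMPs, 4 rose and 7 fell (47.8% called, against 54.8% of all genes tested). SCARB2, the LIMP-2 receptor of glucocerebrosidase, fell (log2 ratio -0.51 by edgeR, adjusted p = 1.32e-12), as did TMEM192 (-0.51, edgeR adjusted p = 2.63e-09), while TPCN2, a cation channel gene of endolysosomes, rose (0.63, edgeR adjusted p = 4.00e-05).

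Genes that tag and sort lysosomal enzymes were divided. Of 16 tested, 7 rose and 5 fell (75.0% called, against 54.8% of all genes tested). The clathrin adaptor subunits AP1M1 (log2 ratio 0.70 by edgeR, adjusted p = 3.89e-11) and AP1S1 (0.55, edgeR adjusted p = 4.20e-11) rose, as did NAGPA, which uncovers the mannose 6-phosphate tag (0.45, edgeR adjusted p = 0.00792). Of 12 tested V-ATPase genes outside the rule, 6 were called, 1 higher and 5 lower, where 54.8% of all genes tested were called. The subunits of the mammalian RAVE complex, which helps reassemble the pump, were lower, with log2 fold changes of -0.42 for DMXL2, -0.28 for WDR7 and -0.27 for DMXL1 (edgeR adjusted p = 1.46e-08, 0.00296 and 0.000234), and ROGDI, linked to the same complex, was not called. TCIRG1 was not called (0.17, edgeR adjusted p = 0.153).

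The deposited pathway annotation places 254 genes of the table under its term Lysosome. Of these, 159 were tested, 39 were higher and 44 lower (52.2% called, against 54.8% of all genes tested), and the median log2 fold change was 0.019. Without the genes of the symbol rule, 139 were tested, with 34 higher and 36 lower (50.4% called). Genes of the other lists above were not taken out of this count.

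**Figure D4:**
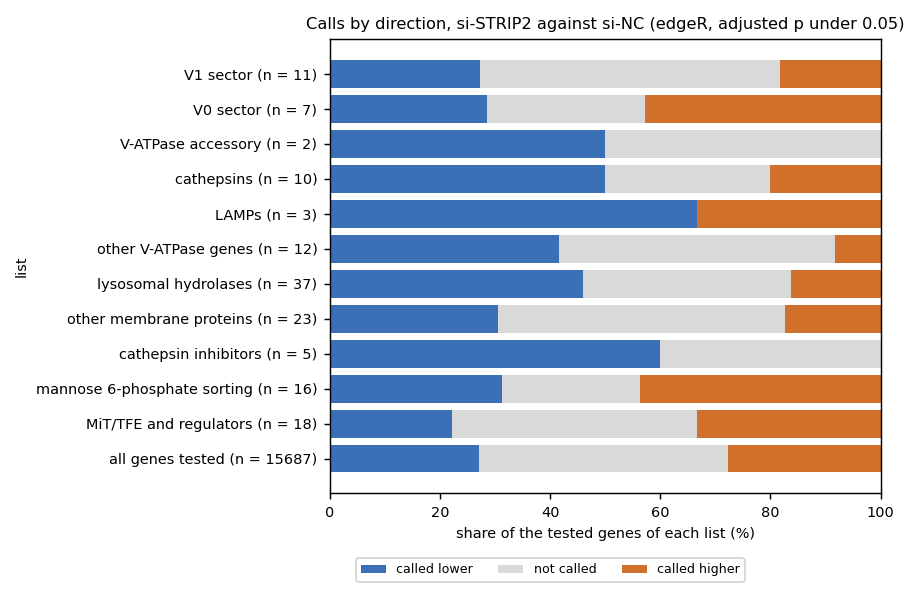
Share of the tested genes of each list that were called lower, not called or called higher in si-STRIP2 (edgeR, adjusted p under 0.05), with the number tested beside each name and all 15687 genes tested in the last bar. Lower calls outnumber higher ones for cathepsins (5 against 2), hydrolases (17 against 6) and cathepsin inhibitors (3 against 0). The same holds for other V-ATPase genes (5 against 1), other membrane proteins (7 against 4), V1 (3 against 2), LAMPs (2 against 1) and accessory genes (1 against 0). Higher calls outnumber lower ones for V0 (3 against 2), sorting genes (7 against 5) and the MiT/TFE list (6 against 4). The 15687 genes split into 27.0% lower and 27.8% higher.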

How the data were processed

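The authors deposited one table with a raw count and an FPKM value per Ensembl gene and library, per the file headers. Per the submitters' processing notes the build was GRCh38.p13 and the tools named are bcl2fastq 2.20.0.422, FastQC 0.10.1, cutadapt 1.9.1, HISAT2 2.2.1 and HTSeq 0.6.1. Their parameters, the annotation release and whether counting was by strand are not given in the sources used here. Recomputing the deposited FPKM from count, exonic size and column total differed by at most 0.005.

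Deposited counts were tested in R 4.3.3 with edgeR 4.0.16: filterByExpr (minimum count 10; 15687 genes with 99.8% of counts), TMM scaling, a quasi-likelihood fit with group as the only term, a 2-sided F test, and Benjamini-Hochberg adjustment over all genes tested. Standard errors are the absolute log2 fold change over the square root of F. On simulated counts for 15687 genes, 92.8% of genes changed 2-fold and 80.8% of those changed by 0.5 on the log2 scale were recovered. Of the calls, 5.03% were false. The simulation changed far fewer genes than were called in the real data and gave all genes the same dispersion (spread between libraries). Its shares may therefore not hold for the real data. Alternatives used DESeq2 1.42.0, limma 3.58.1, other filters and scaling, a replicate block, glmTreat and leaving out each library.

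Genes given in every library include the 12 called ones with the largest change and at least 1 FPKM. From each further list the 3 called genes with the largest change and at least 1 FPKM are named, except 1 that is not reported here, and others named there were chosen after their values were seen. The genes and lists were chosen with earlier results of these data known. The ratios between genes within a library were also chosen after their values were seen. No set test was made. Promoter windows are from RefSeq.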

Additional observations from a re-analysis of the deposited data

How the results depend on the processing

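Over 14 alternatives no called gene of the group was called in the other direction, and 15 of the 21 were called in every alternative that gave them a value, apart from the test against 1.2-fold. The 6 others were LAMP1, ATP6V0E1, ATP6V0E2, ATP6V1C2, CTSA and CTSD. The test against 1.2-fold (edgeR glmTreat) called 6 genes, 2 higher and 4 lower, with 2 of the pump, 3 cathepsins and 1 LAMP, since it asks for more. Over all genes tested it called 23.7%. It called 1 of 12 further V-ATPase genes, 6 of 37 hydrolases, 5 of 23 membrane proteins and 4 of 16 sorting genes. Of the other lists it called 4 of 18 MiT/TFE genes, 2 of 5 cathepsin inhibitors, 1 of 7 epithelial markers and 8 of 9 stress genes. For the Lysosome term it called 31 of 159 genes (27 of 139 without the group described here). DESeq2 called 5 genes higher, as did edgeR with no filter on low counts, in place of 8. Over all genes and in either direction, DESeq2 called 7238 of 15687 and the unfiltered fit 8365 of 32799. The main fit called 8599 of 15687. The cause of the smaller number of higher calls was not tested.

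Leaving out each library in turn gave 17 to 22 calls, with 6 to 8 higher and 11 to 14 lower. The median log2 fold change ranged from -0.107 (without si-NC replicate 3) to -0.0384 (without si-NC replicate 2). Markers of other cell types had 0 to 1 calls. ATP6V1H, which was not called, turned to 0.0185 and 0.00251 without si-NC replicate 1 or 2, and ranged down to -0.107. CTSK, also not called, ranged from -0.0226 (without si-STRIP2 replicate 1) to 0.163.

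The replicate numbers are shared between the groups, but same-numbered libraries did not deviate together (correlations of -0.086, -0.013 and -0.072). With 3 libraries per group, these correlations cannot decide whether such libraries share a culture or batch. With the replicate block 20 genes were called, 19 of them among the 21, and the added gene was ATP6V1F (log2 fold change 0.142, adjusted p = 0.0433). Depth limits the 9 genes that were not tested, which had at most 31 counts over all libraries.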
